A study of Homo sapiens with 20 samples.

Results

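The genes described here are those of the unfolded protein response of the endoplasmic reticulum (ER), followed in 2 colorectal cancer cell lines after silencing of POLR1D, which encodes a protein shared by RNA polymerases I and III. A list of 39 members was taken by name from the 36346 gene names of the series. A member was kept in a cell line when its normalized DESeq2 read count was at least 10 in at least 4 libraries of that line. This left 38 members in SW480 and the same number in HT29, out of 15651 and 13274 gene names tested. DERL3, a channel protein of ER-associated degradation, was the member left out, with values between 0 and 15.6 over all libraries. RNA was collected 72 h after reverse transfection with Lipofectamine RNAiMAX. Cells received a scrambled control siRNA (SCR) or 1 of 2 siRNAs against POLR1D, siPOLR1D2 or siPOLR1D3. HT29 gave 4 SCR libraries and 2 libraries for each POLR1D siRNA, and SW480 gave 6 SCR libraries and 3 for each. Untransfected cells were not analysed here, so the SCR libraries carry the transfection as well.

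When unfolded proteins build up in the ER, the sensors ERN1 (IRE1), ATF6 and PERK set off separate arms of a common response. ATF6 is cut to release a transcription factor, and ERN1 splices the XBP1 transcript so that it encodes one. Together these factors are known to raise the ER chaperones, the disulfide isomerases and the proteins of ER-associated degradation (ERAD), which removes misfolded proteins. PERK instead slows translation and raises ATF4, whose targets serve amino acid supply, tRNA charging and the stress response through DDIT3 (CHOP). The comparison asked whether the chaperone and ERAD genes of the ATF6 and XBP1 arm fell together with the ATF4 arm. The deposited values are per gene, so the spliced and unspliced forms of XBP1 are not told apart.

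Estimated depth was between 13500000 and 22800000 reads in HT29 and between 18700000 and 27500000 in SW480. Of 10 markers of colorectal epithelium, 8 were at 10 or more in every HT29 library, and CDX1 and CDX2 were below that level in all HT29 libraries. In SW480, CDX1 and LGALS4 fell under 10 in at least 1 library of each arm and KRT20 in at least 1 SCR library. Of 7 markers of leukocytes, endothelium and stroma, only COL1A1 was at 10 or more in every library of either line, and the summed level of the 7 was between 20 and 745, against 139167 to 270010 for the epithelial list. In HT29, SCR replicate 1 stood apart from the other libraries. POLR1D itself was between 1829 and 2599 in the SW480 SCR libraries and between 843 and 1336 in the silenced ones. In HT29 it was between 4433 and 6036 under SCR and between 2550 and 3492 after silencing. The libraries did not overlap in either line.

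Most members carry no recognisable ER stress element in the 1 promoter window read per gene, and those that do are mainly chaperones. RefSeq promoters (GRCh38.p14, 250 bases before to 50 after the start) were found for 36 of the 39 members, with PDIA3, DERL1 and DERL3 unmatched. For CREB3L2 the window (chr7:137932939-137933238) lies well inside the gene (chr7:137874979-138002067, minus strand), so its outer start was not read. The windows of PDIA4, PDIA6, CANX, SSR1 and DNAJB11 also lie inside the annotated gene. So do those of ERN1, XBP1, HSPA13, HSP90B1, CRELD2, DNAJB9, DERL2 and ERO1A, closer to its outer start. The ER stress response element (ERSE), read on both strands as CCAAT, 9 bases of any kind and CCACG, was in 7 of the 36 (19.4%) and in 27 of all 35116 promoters (0.0769%). The related ERSE-II, ATTGG, 1 base of any kind and CCACG, was in 3 members (8.33%) and in 0.0541% of all promoters. The UPRE core TGACGTGG was in DNAJC10 and HYOU1 (5.56%, against 0.729% of all promoters), and in HYOU1 it overlaps an ERSE-II. The C/EBP-ATF element, to which ATF4 can bind, was searched as TGATGNAAT and matched in 0 of the 36, against 0.991% of all promoters. This pattern is strict, as it matched in only 2 of 37 promoters of the ATF4 arm (5.41%). The HERPUD1 promoter printed below holds a near match on the other strand that differs only in the last letter. Near matches were not counted, so the search cannot show that the members lack ATF4 sites. The members are textbook targets of these elements, so their presence is a description of the list. Each element is written below in its own direction from 5′ to 3′ with 5 bases on either side, and the capitals mark the fixed letters.
HSPA5 ERSE: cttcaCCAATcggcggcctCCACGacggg
HSP90B1 distal ERSE: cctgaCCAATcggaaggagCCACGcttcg
HSP90B1 proximal ERSE: acccaCCAATcgcgccgcaCCACGcaccc
CRELD2 ERSE: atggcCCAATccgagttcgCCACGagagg
CALR ERSE: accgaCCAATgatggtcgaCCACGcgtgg
CANX ERSE: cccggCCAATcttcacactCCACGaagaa
PDIA6 ERSE: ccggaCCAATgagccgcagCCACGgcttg
ERO1B ERSE: ggcggCCAATgaggcgggaCCACGcgggc
HYOU1 distal ERSE-II: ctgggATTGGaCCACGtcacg
HYOU1 proximal ERSE-II: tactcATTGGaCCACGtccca
SDF2L1 ERSE-II: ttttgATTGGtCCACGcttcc
HERPUD1 ERSE-II: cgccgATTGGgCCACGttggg

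The promoters of HSPA5 and HERPUD1 are shown whole, because HERPUD1 was the only 1 of these 10 genes that passed the test in SW480, while HSPA5 is the best known target of the element. Capitals mark the whole element, spacer included. The HSPA5 promoter lies at chr9:125241294-125241593 on the minus strand, with its ERSE between 66 and 48 bases before the start. The HERPUD1 promoter lies at chr16:56931892-56932191 on the plus strand, with its ERSE-II between 117 and 107 bases before the start.
HSPA5: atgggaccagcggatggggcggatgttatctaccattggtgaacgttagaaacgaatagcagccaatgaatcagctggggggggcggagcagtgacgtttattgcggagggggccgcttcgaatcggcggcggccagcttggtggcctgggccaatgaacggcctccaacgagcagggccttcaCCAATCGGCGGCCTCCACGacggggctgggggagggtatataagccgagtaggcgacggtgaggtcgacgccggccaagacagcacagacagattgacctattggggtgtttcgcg
HERPUD1: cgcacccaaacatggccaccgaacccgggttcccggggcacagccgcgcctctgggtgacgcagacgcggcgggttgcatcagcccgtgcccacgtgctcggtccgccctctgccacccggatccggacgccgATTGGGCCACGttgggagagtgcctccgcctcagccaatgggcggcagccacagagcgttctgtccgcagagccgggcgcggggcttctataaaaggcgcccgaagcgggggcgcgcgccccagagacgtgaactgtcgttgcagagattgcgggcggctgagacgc

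In SW480, POLR1D silencing lowered 8 of the 38 members (21.1%), and these were 4 sensors or transcription factors, 3 ERAD genes and 1 chaperone. The 8 were ERN1, XBP1, ATF6, CREB3L2, HERPUD1, EDEM1, EDEM2 and HSPA13. Over all genes tested, 4.06% were called lower and 2.35% higher by limma at an adjusted p under 0.05, and 0 members were called higher. At an unadjusted p under 0.05 there were 15 members (14 of them lower), beside 22.7% of all genes in either direction and 12.4% lower. The median log2 change was -0.15 over the members and 0.02 over all genes. The member median moved to -0.22 without SCR replicate 2, to -0.26 with siPOLR1D2 alone, to -0.08 with upper quartile scaling and to -0.09 with quantile normalization. In 5 members every silenced library was below every SCR library, a pattern held by 2.79% of all genes. XBP1 and HSPA13 also stand in a gene list that the study chose on these same samples, so their direction is not independent evidence. In bulk RNA, fewer expressing cells and less RNA per cell cannot be told apart.

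**Figure D1:**
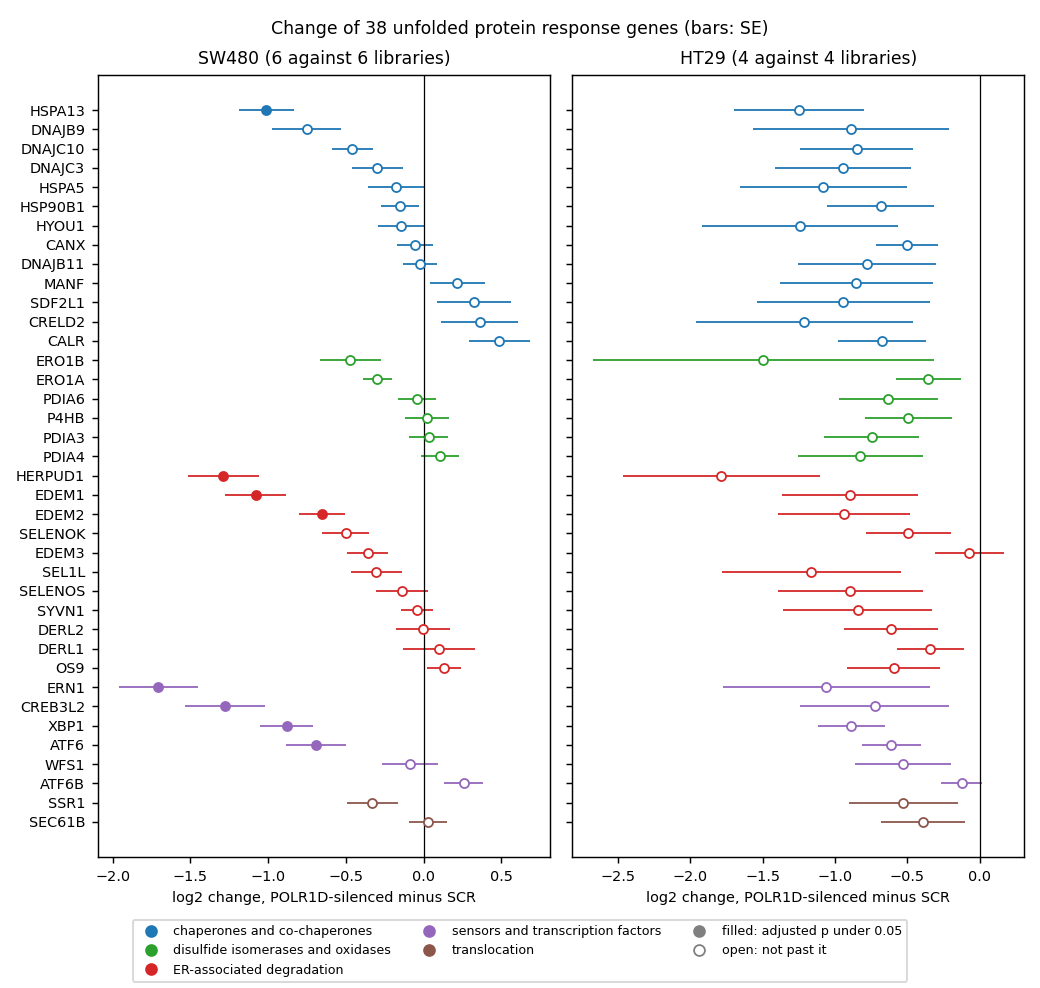
Log2 change (POLR1D-silenced minus SCR, horizontal axis) of the 38 members in SW480 and HT29, with bars of 1 standard error, colours for the roles and filled points for an adjusted p under 0.05. In SW480 the 8 filled points lie between -1.71 and -0.65 with most chaperones and isomerases near 0, while in HT29 the 38 points are open and lie between -1.79 and -0.07.

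Among the 6 sensors and transcription factors, 4 fell in SW480. ERN1, the ER kinase and ribonuclease that splices XBP1 (chr17:64039142-64130819, GRCh38), had a lowest, median and highest value of 184, 334 and 483 under SCR and of 68.7, 97.5 and 157 after silencing. The 2 groups did not overlap, and the log2 change was -1.71 ± 0.26 (SE, n = 6 against 6; limma adjusted p = 0.00323), which is a 3.26-fold drop and the largest among the members. CREB3L2, an ER-anchored transcription factor related to ATF6 (chr7:137874979-138002067), ran from 171 through a median of 310 to 452 under SCR. After silencing it ran from 91.2 through 115 to 158, again with no overlap, and fell by 1.28 on the log2 scale (SE 0.26, limma adjusted p = 0.0136).

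XBP1, the transcription factor made by the ERN1 arm (chr22:28794555-28800597), had values of 649, 1000 and 1352 under SCR (lowest, median, highest) and of 445, 536 and 692 after silencing. In 5 of 6 silenced libraries it was below every SCR library, and the log2 change was -0.88 ± 0.17 (limma adjusted p = 0.0114). The annotation also holds a pseudogene, XBP1P1, and reads shared with it could not be separated from these values. ATF6 (chr1:161766294-161964070) was between 1846 and 3815 with a median of 2223 under SCR and between 1056 and 2167 with a median of 1468 after silencing. Its log2 change of -0.69 ± 0.19 lay just past the threshold (limma adjusted p = 0.049). It passed in only 2 of the 12 fits that each leave out 1 library, with adjusted p over all alternatives from 0.00622 to 0.67. The highest SCR value, 3815, came from replicate 3. ATF6B, the paralog of ATF6, had a log2 change of 0.26 ± 0.13 (limma adjusted p = 0.239) and WFS1, an ER membrane protein that restrains ATF6, one of -0.08 ± 0.18.

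Of the 11 ERAD genes kept, 3 fell. HERPUD1, a membrane protein that gathers the ERAD ubiquitin ligase complex (chr16:56932048-56944863), was between 1069 and 2889 under SCR with a median of 2499, and between 678 and 1335 after silencing with a median of 859. The log2 change was -1.29 ± 0.23 (limma adjusted p = 0.00735), with 5 of 6 silenced libraries below every SCR library. The lowest SCR value, 1069, was in replicate 1, and the highest silenced value, 1335, in siPOLR1D2 replicate 2. EDEM1 and EDEM2 both serve the trimming of mannose that marks misfolded glycoproteins for removal. EDEM1 (chr3:5187646-5219957) was between 892 and 1936 under SCR and between 382 and 740 after silencing, a log2 change of -1.08 (SE 0.20, limma adjusted p = 0.00805). EDEM2 (chr20:35115357-35147364) was between 589 and 827 under SCR and between 344 and 561 after silencing, a log2 change of -0.65 (SE 0.15, limma adjusted p = 0.0233). Neither gene overlapped between SCR and silenced libraries. EDEM2 passed in 7 of the 12 fits that leave out 1 library, whereas HERPUD1, EDEM1, ERN1, CREB3L2, XBP1 and HSPA13 passed in 12 of 12.

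The other 8 ERAD genes did not pass. SELENOK, a selenoprotein of the ER membrane, did not overlap between groups (104 to 175 under SCR, 83.7 to 102 after silencing) and had a log2 change of -0.50 ± 0.15 (limma adjusted p = 0.0655). The third EDEM gene, EDEM3, gave -0.36 ± 0.13 (limma adjusted p = 0.122). SEL1L, the adaptor of the ERAD ligase, gave -0.30 ± 0.17 (limma adjusted p = 0.299), and SYVN1, the ligase itself, gave -0.04 ± 0.10. DERL1, DERL2, SELENOS and OS9 lay between -0.14 and 0.13.

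The chaperone list gave 1 call among 13 genes. HSPA13, a small ER-located relative of HSP70 (chr21:14371115-14383484), was between 898 and 1781 under SCR and between 519 and 934 after silencing, with medians of 1379 and 641. It fell by 1.01 on the log2 scale (SE 0.18, limma adjusted p = 0.0069), with 5 of 6 silenced libraries below every SCR library. HSPA5 (BiP), the main ER chaperone and the usual readout of the response (chr9:125234853-125241330), had a lowest, median and highest value of 5762, 8788 and 9958 under SCR. After silencing these were 4538, 7574 and 8802. The groups overlapped, and the log2 change was -0.18 ± 0.18 with a 95% interval from -0.57 to 0.21 (limma adjusted p = 0.608). HSP90B1 (GRP94), the ER form of HSP90, was between 25991 and 36596 under SCR and between 21458 and 31544 after silencing. Its log2 change was -0.15 ± 0.12 with an interval from -0.42 to 0.11.

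Other chaperones lay on both sides of 0 in SW480. HYOU1, the nucleotide exchange factor of HSPA5, gave -0.14 ± 0.15, and DNAJB11, an HSPA5 co-chaperone, gave -0.02 ± 0.11. DNAJB9, the co-chaperone that holds ERN1 inactive, had values of 197 to 504 under SCR and 127 to 211 after silencing. Its log2 change was -0.75 ± 0.22 (limma adjusted p = 0.0603), and it overlaps PNPLA8 and THAP5 on the opposite strand, whose reads could be shared. DNAJC10, an ER reductase of the same family, gave -0.46 ± 0.13 (limma adjusted p = 0.0544). DNAJC3, a further HSPA5 co-chaperone, gave -0.30 ± 0.16 (limma adjusted p = 0.307), and CANX (calnexin), the membrane-bound lectin chaperone, gave -0.05 ± 0.12. SDF2L1, CRELD2, MANF and CALR all had higher means after silencing, with log2 changes of 0.32 ± 0.24, 0.36 ± 0.25, 0.22 ± 0.18 and 0.49 ± 0.19. Of these, CALR (calreticulin) had the smallest limma adjusted p, 0.151. CRELD2 overlaps ALG12 on the opposite strand.

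The 6 disulfide isomerases and oxidases and the 2 translocation genes gave 0 calls in SW480. ERO1B and ERO1A, which reoxidise the isomerases, had log2 changes of -0.47 ± 0.20 and -0.30 ± 0.09 (limma adjusted p = 0.171 and 0.0742). The isomerases PDIA3, PDIA4, PDIA6 and P4HB were between -0.04 and 0.11. SSR1 and SEC61B, parts of the translocation machinery, gave -0.33 ± 0.16 and 0.03 ± 0.12.

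**Figure D2:**
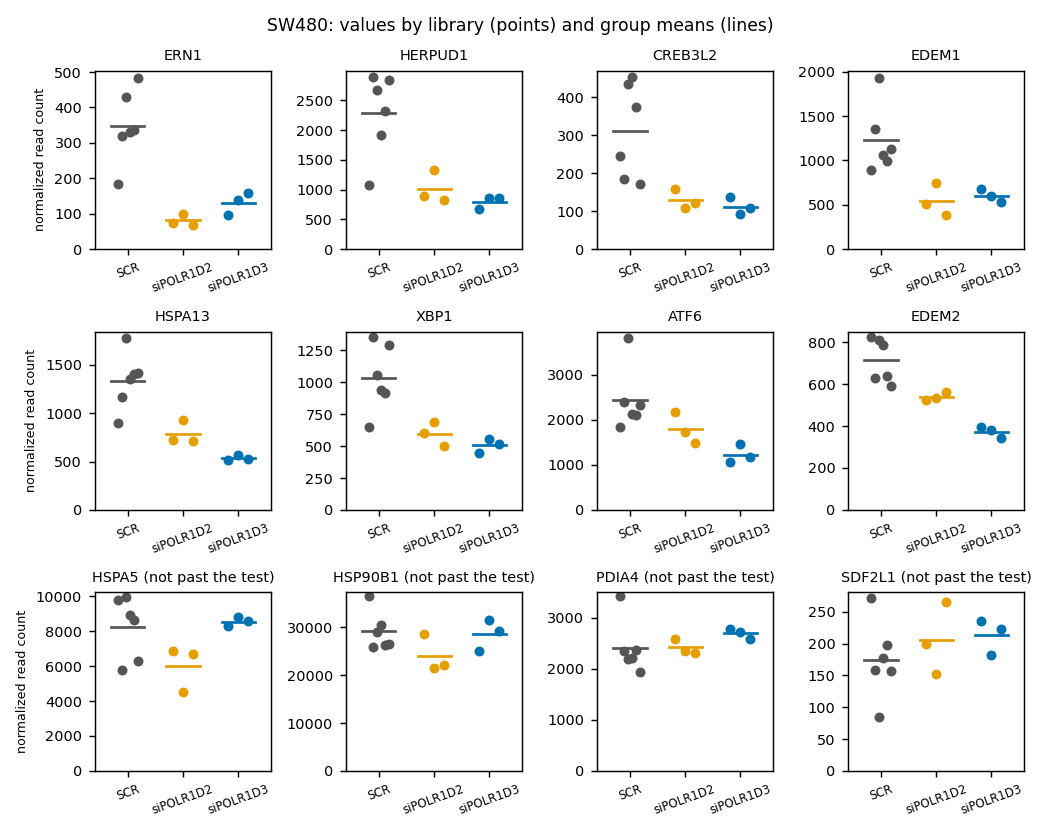
Normalized read count (vertical axes, from 0) in each SW480 library for the 8 members called lower and for HSPA5, HSP90B1, PDIA4 and SDF2L1, with points for libraries and lines for group means. ERN1, CREB3L2, EDEM1 and EDEM2 have no silenced library within the SCR range, while the last 4 genes overlap between groups.

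The members were also set by the elements in their promoters. In SW480 the 10 members with either element had a median log2 change of -0.10 and 1 call (HERPUD1). The 26 without had a median of -0.30 and 7 calls, where 4.06% of all genes were called lower. In HT29 the medians were -1.01 and -0.80, and without SCR replicate 1 they were -0.30 and -0.25. These counts describe the windows searched, and a gene without a match may hold an element elsewhere. The split also went with role, and the 2 were not separated. All of the 10 but HERPUD1 are chaperones, isomerases or oxidases. The sensors and transcription factors, with 4 of the calls, all lie among the 26. CREB3L2, ERN1, XBP1 and HSPA13, which are among the 7 calls, were read in windows inside the gene.

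The ATF4 arm gave many more calls in SW480 than the members did. Of 44 genes listed for that arm, 33 were called lower and 0 higher, with a median log2 change of -0.90, against 8 of 38 and -0.15 for the members. Many of the 44, ATF4, DDIT3, ATF3 and PPP1R15A among them, stand in the list the study chose on these samples. The count of 33 dropped to 19 without SCR replicate 6, to 21 without siPOLR1D3 replicate 1 and to 19 without siPOLR1D3 replicate 3, when the share of all genes called lower also dropped, to 2.21%, 2.39% and 2.25%. It was 8 with siPOLR1D2 alone and 34 with siPOLR1D3 alone, where 2.59% and 3.94% of all genes were called lower. ATF4 was between 5961 and 8030 under SCR and between 2839 and 5347 after silencing, a log2 change of -0.81 ± 0.14 (limma adjusted p = 0.00655). ASNS (asparagine synthetase) and PPP1R15A (GADD34, which restores translation) fell further, with log2 changes of -1.79 ± 0.23 and -1.94 ± 0.28 (limma adjusted p = 0.00165 and 0.00268). TRIB3, an ATF4 target that curbs it in turn, had a log2 change of -1.70 ± 0.37, and DDIT3 and ATF3 had -1.74 ± 0.40 and -1.74 ± 0.49 (limma adjusted p = 0.018, 0.0227 and 0.0497). Over all genes, 4.06% were called lower and 2.35% higher. A wider list of 102 other ER genes was near these shares, with 6 lower calls (5.88%), 2 higher calls and a median of 0.02. In it ERLEC1 (a lectin of ERAD), GPX8 (an ER peroxidase, also in the study's list) and SSR3 (a translocon-associated subunit) fell, with log2 changes of -0.50, -1.27 and -0.82 (limma adjusted p = 0.0167, 0.0207 and 0.0267). MOGS, which trims the first glucose from N-glycans, and SEC61A2, a translocon subunit, rose by 0.69 and 0.96 on the log2 scale (limma adjusted p = 0.00379 and 0.033).

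**Figure D3:**
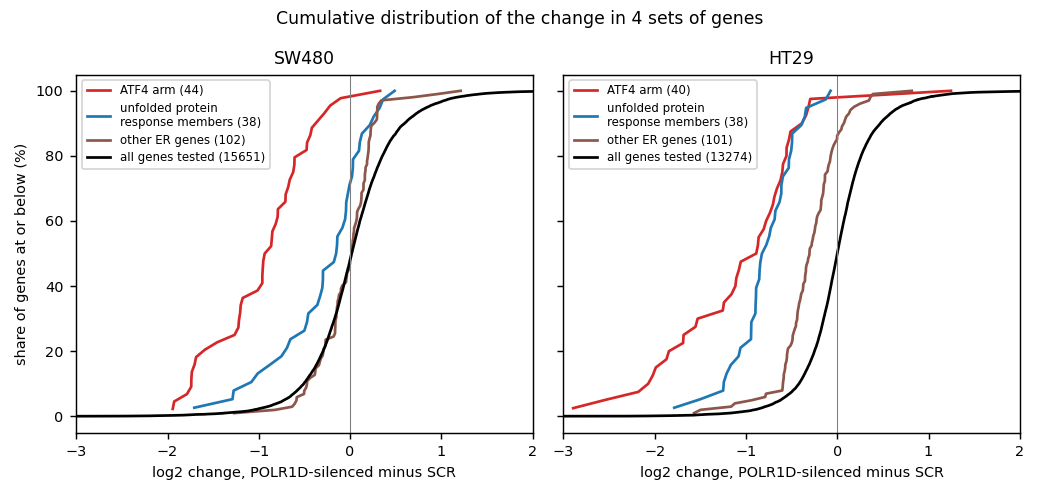
Cumulative share of genes (vertical axis, %) at or below each log2 change (horizontal axis) for the ATF4 arm, the members, other ER genes and all genes tested, in SW480 and HT29. In SW480 the ATF4 arm (median -0.90) lies to the left of the members (median -0.15), and in HT29 the ATF4 arm and the members have medians of -0.88 and -0.80 (-0.63 and -0.26 without SCR replicate 1).

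In HT29 all 38 members had a log2 change below 0 (6635 of the 13274 genes tested did), but 0 members passed the test, and a large part of the drop came from 1 SCR library. No gene of the whole table passed in HT29 (0.0% lower and 0.0% higher, limma). The study used DESeq2 and listed XBP1 and HSPA13 as lower in HT29 as well as in SW480. The absence of calls in HT29 therefore holds for the limma fit used here. The median log2 change was -0.80 over the members and 0.00 over all genes. At an unadjusted p under 0.05 there were 6 members, all lower, beside 10.7% of all genes in either direction and 6.05% lower. Of the 40 ATF4-arm genes kept in HT29, 32 were at that level, all lower, though that list shares genes with the study's own. In SCR replicate 1 all 38 members were at their highest of the 8 libraries, where 29.1% of all genes had their highest value. It exceeded the next SCR library by a factor between 1.30 and 9.83, with a median of 2.79, and by over 2 in 30 members. The median member stood 1.40 above the SCR mean on the log2 scale in that library. In SCR replicates 2, 3 and 4 it stood at -0.19, -0.64 and -0.57, and in the 4 silenced libraries between -0.81 and -0.72. The pattern was shared by the ATF4 arm. Of its 40 genes kept in HT29, 38 were highest in SCR replicate 1, with a median of 0.88 above the SCR mean. The state of the cells behind SCR replicate 1 was not tested.

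**Figure D4:**
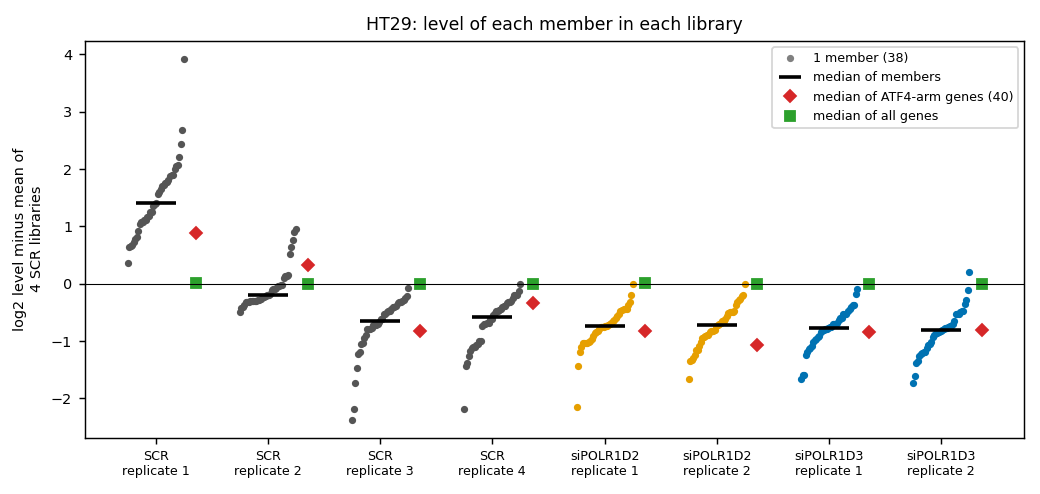
Log2 level of each of the 38 members minus its mean over the 4 SCR libraries (vertical axis) in each HT29 library, with the medians of the members, of 40 ATF4-arm genes and of all genes. SCR replicate 1 lies highest, with a member median of 1.40, and SCR replicates 3 and 4 (-0.64 and -0.57) lie near the silenced libraries (-0.81 to -0.72).

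The gap between SCR replicate 1 and the other HT29 libraries was seen across roles. It was widest for the oxidase gene ERO1B, at 1521 in SCR replicate 1 and 155, 18.4 and 21.0 in the others, against 30.6 to 40.1 after silencing. HSPA5 had values of 62198, 14831, 7757 and 7139 in SCR replicates 1 to 4, of 7419 and 7049 with siPOLR1D2 and of 7064 and 6896 with siPOLR1D3. Replicates 3 and 4 were thus close to the silenced libraries, and the log2 change of -1.08 ± 0.57 gave a limma adjusted p of 0.514. HYOU1 was 52239 in SCR replicate 1 and 9141, 4247 and 4300 in the others, against 3729 to 4721 after silencing. CRELD2, a secreted ER stress protein, was 2185 in SCR replicate 1 and 296, 165 and 125 in the others, against 113 to 201 after silencing. HSP90B1 was 125155, 34690, 36875 and 35941 under SCR and between 28675 and 33144 after silencing, so that the groups did not overlap even without SCR replicate 1.

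XBP1 and ATF6 were the sensor and factor genes whose SCR and silenced libraries stayed apart in HT29. XBP1 was 2848, 1963, 1168 and 1570 under SCR, 878 and 1026 with siPOLR1D2 and 1025 and 943 with siPOLR1D3. Every silenced library was below every SCR library, and the log2 change was -0.89 ± 0.23 (limma adjusted p = 0.355; exact 2-sided permutation p = 0.0286, the smallest that 4 against 4 can give). ATF6 was 3221, 1967, 1630 and 1643 under SCR and between 1224 and 1438 after silencing, a log2 change of -0.61 ± 0.20. In all, 11 members had every silenced library below every SCR library, as did 4.17% of all genes. By contrast ERN1 was 850, 422, 48.7 and 148 under SCR and between 96.8 and 121 after silencing, so that SCR replicate 3 was the lowest of all 8. HERPUD1 was 9690, 4117, 727 and 1167 under SCR, and 542 and 758 with siPOLR1D2 and 799 and 727 with siPOLR1D3. HSPA13, at 1408, 840, 251 and 406 under SCR, was between 230 and 274 after silencing.

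Without SCR replicate 1 the HT29 drop became smaller but kept its direction in 37 of 38 members. The median log2 change was then -0.26 over the members and -0.63 over the ATF4 arm, against -0.80 and -0.88 with all libraries. At an unadjusted p under 0.05 there were 12 members, and 10.2% of all genes passed that level. XBP1 and HERPUD1 then had log2 changes of -0.67 ± 0.16 and -1.12 ± 0.47 (limma adjusted p = 0.322 and 0.466). HSP90B1 had -0.23 ± 0.08 and PDIA3 -0.35 ± 0.09 (limma adjusted p = 0.418 and 0.322).

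**Figure D5:**
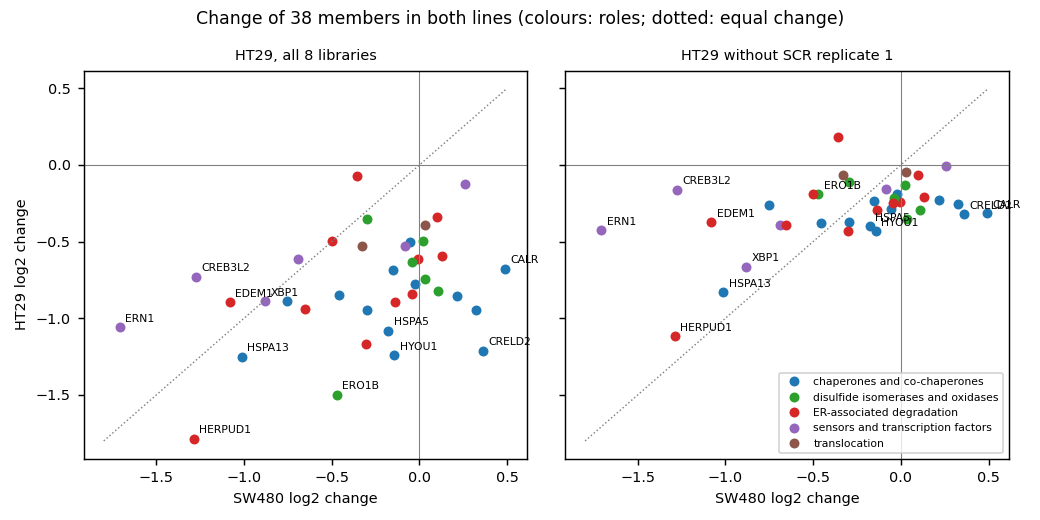
Log2 change of each of the 38 members in SW480 (horizontal axis) against HT29 (vertical axis), with all HT29 libraries on the left and without SCR replicate 1 on the right. With all libraries 32 members lie below the dotted line of equal change, and without that replicate the HT29 median moves from -0.80 to -0.26.

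The response of the 2 lines was compared as a difference in change, since each line was normalized alone. Of the 38 members, 27 were below 0 in both lines and 11 were below 0 in HT29 and above 0 in SW480. Pearson's r across the members was 0.38 and Spearman's rho 0.33, as a description over genes that share the same libraries, with r = 0.37 over all 12848 genes tested in both. In the limma fit of the difference, 0 members and 0.0467% of all genes passed, the smallest adjusted p among the members being 0.326. At an unadjusted p under 0.05 there were 6 members, and 8.55% of all genes passed that level. The 6 were CALR, PDIA3, OS9, PDIA4, CRELD2 and SDF2L1, each below 0 in HT29 and above 0 in SW480. CALR had the smallest p, with a difference of 1.17 ± 0.36. Much of the difference went with HT29 SCR replicate 1. The median difference over the members (SW480 minus HT29) was 0.51 with all libraries and 0.10 without that replicate. The members with the more negative change in HT29 were 32 and 23, and Pearson's r across the members was 0.38 and 0.49. Without it 0 members passed, 7 were at an unadjusted p under 0.05, and 26 were below 0 in both lines.

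No member passed the test of a difference between the 2 siRNAs in either line. In SW480, 0 members differed between siPOLR1D3 and siPOLR1D2 while 3.01% of all genes did, with 8 members at an unadjusted p under 0.05 beside 21.4% of all genes and a smallest limma adjusted p of 0.0603. In HT29 there were 0 members and 0.0% of all genes, and 0 members at an unadjusted p under 0.05 beside 1.56% of all genes. Against SCR, siPOLR1D2 alone called EDEM1 and ERN1 lower in SW480 (2.59% of all genes were called lower). With siPOLR1D3 alone 9 members were lower and CALR and CRELD2 were higher (3.94% of all genes lower and 1.98% higher). HSPA5 had a log2 change of -0.44 with siPOLR1D2 and of 0.09 with siPOLR1D3, a difference of 0.53 (limma adjusted p = 0.19). ERN1 had -2.05 and -1.37, a difference of 0.68 (limma adjusted p = 0.24).

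The SW480 libraries also fell into 2 sides along the first principal component, a split the labels do not name. One side held SCR replicates 1 to 3 and siPOLR1D2 replicates 1 and 2, and the other side held the remaining 7 libraries. The second side thus held every siPOLR1D3 library and only replicate 3 of siPOLR1D2. The contrasts between the siRNAs and between the sides therefore cannot be told apart here. SCR replicate 1 lay between the sides on that component, at -17.0. The rest of the first side ran from -76.3 to -55.6 and the second side from 23.3 to 57.7. The side of SCR replicate 1 was set by the sign of its value alone. Within the first side 0 members passed (limma), with 4 at an unadjusted p under 0.05 and a median of -0.29, and 0.0% of all genes passed. Within the second side the same 8 members were called lower, and CALR and CRELD2 were called higher, with 6.99% of all genes lower and 5.71% higher. With the side as a covariate 13 members were lower (7.46% of all genes). XBP1 had log2 changes of -0.60 and -1.04 in the first and second sides, ERN1 of -1.76 and -1.77, and HSPA5 of -0.57 and 0.03.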

How the data were processed

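RNA-seq libraries (TruSeq RNA Exome, 75 bp paired-end) of HT29 and SW480 cells were quantified by the authors with kallisto (0.44.0) and normalized with DESeq2 (1.24.0) within each line, after FastQC (0.11.5), on hg38 per the submitters' processing notes. The deposited signal values are these normalized read counts, 1 file per library. The kallisto index and strand setting are not given in the sources used here. Between 31.1% and 55.2% of low values were within 0.02 of a whole multiple of the value of 1 read, so reads per gene were not recovered and no counting interval is given. Depth was estimated from that value and the sum of a library.

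Rows sharing a name were summed (40117 rows, 36346 names). Levels were compared within a line only. limma (3.58.1, R 4.3.3) was fitted with a mean-variance trend on log2(value + 1), which understates the change of low genes, and p-values were adjusted over the whole table (Benjamini-Hochberg) with a threshold of 0.05. Both siRNAs were pooled, without a covariate. Errors after ± are standard errors. Single genes were also compared by exact 2-sided permutation. The fit was also run on simulated data with noise drawn independently for each gene and library. Those data hold no shift of a whole library and no library split, so they do not bear on either. Replicate numbers come from the labels, which do not say that replicates are separate cultures, so p-values measure the spread between these libraries.

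The members, the other lists, and the tests were chosen with earlier results of these data known. Every member was accounted for, and those that passed, the sensors, the main chaperones and 6 ATF4-arm genes were named with values, together with at most 3 genes in each direction of the wider ER list. Positions are from GENCODE 29 (GRCh38) and promoters from RefSeq (GRCh38.p14). Protein sequences were not used here. Alternatives were the pseudocount, the filter, the scaling, the trend, the handling of duplicate names, each siRNA alone, the library split, the replicate block and each library left out.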

Additional observations from a re-analysis of the deposited data

Results flagged for a closer look

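Among 152 groups of 4 or 6 libraries (1 per member, line and arm), 35 extreme values stood far from the rest of their group by Dixon's criterion, which chance meets in about 1 group in 20. Of these, 26 were in HT29 SCR replicate 1, each above the other SCR libraries. Among the genes named with values they were HSPA5 (62198), HSP90B1 (125155), HYOU1 (52239) and PDIA4 (33159), all abundant chaperones or isomerases. The same library held the extreme value of the co-chaperone DNAJB11 (8664) and of SDF2L1 (1298), CRELD2 (2185) and MANF (3429), which are small soluble ER proteins. It also held those of the ERAD genes SEL1L (6457) and EDEM2 (1907). The origin of this library's values was not tested.

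In SW480 the values set apart came from several libraries. DNAJB9 (504) and ATF6 (3815) were highest in SCR replicate 3. PDIA4 (3428) was highest in SCR replicate 1. HERPUD1 (1335) was highest among the silenced libraries in siPOLR1D2 replicate 2.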

How the results depend on the processing

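The 8 SW480 members called lower were between 6 and 11 with 1 library left out, while the share of all genes called lower was between 2.21% and 4.73%, and 0 to 1 were called higher (CALR, without siPOLR1D2 replicate 2). The lower count was 2 with siPOLR1D2 alone, 13 with the library split as a covariate and 0 on its first side, which holds 5 libraries. The higher count was 2 with siPOLR1D3 alone and 2 on the second side. In the comparison of the 2 siRNAs in SW480, leaving out 1 library gave 0 to 2 members. Other pseudocounts, filters and scalings gave 7 to 9 lower in SW480 and 0 in HT29.

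The labels do not say whether the replicate numbers pair the libraries. Same-numbered libraries had a mean correlation of deviations of -0.030 in HT29 and -0.075 in SW480, against 0.0096 and 0.026 for other pairs. Over the 6 same-numbered pairs of SW480 it ran from -0.39 to 0.56, so a low mean cannot show that pairing is absent. With the number as a block the lower calls were 0 in SW480 and 20 in HT29 (0% and 3.14% of all genes), and the difference between lines gave 1 (HYOU1). Silenced libraries carry only the numbers 1 and 2 in HT29 and 1 to 3 in SW480. SCR replicates 3 and 4 of HT29 and 4 to 6 of SW480 thus have no silenced partner and add nothing to that contrast. In HT29 the block fit therefore rests on SCR replicates 1 and 2, with a member median of -1.47. What else moved the calls was not tested. No result changed direction with a call under the alternatives run. Depth could not be turned into a limit per gene.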
